A study of Mus musculus with 2 samples.

Results

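The genes that write, maintain, oxidise and read DNA methylation were followed in the intestine of mice with and without Setd2 in the intestinal epithelium. The set holds 9 genes, chosen by symbol from the 18919 genes of the deposited expression table: the DNA methyltransferases Dnmt1, Dnmt3a and Dnmt3b, the methyltransferase cofactor Dnmt3l, the maintenance partner Uhrf1, the dioxygenases Tet1, Tet2 and Tet3, and the methyl-CpG binding protein Mbd2. All 9 were found, and 7 reached an FPKM of 1 in at least 1 library (FPKM, the RSEM level scaled to transcript length and library depth). Total RNA of intestine from C57BL/6 mice aged 2 months was sequenced as 2 libraries. The control pool carried APCmin, an Apc mutation used as a mouse model of intestinal adenoma. The other pool carried APCmin; Setd2IEC-/-, that is, the same Apc mutation together with deletion of Setd2 in the intestinal epithelium. Each pool mixed the RNA of 3 littermates, and each genotype had 1 pool, so no difference below has a replicate check and no p-value was computed. The driver of the epithelial deletion is not given in the sources used here, and cells outside the epithelium keep Setd2.

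DNA methylation at CpG is laid down by Dnmt3a and Dnmt3b, and copied to the new strand after replication by Dnmt1, which Uhrf1 brings to hemimethylated sites. Tet enzymes oxidise methylated cytosine, and base excision repair or replication then removes it. Mbd2 binds methylated CpG and joins the NuRD remodelling and deacetylase complex. Setd2 trimethylates lysine 36 of histone H3 along transcribed genes, and the PWWP domains of Dnmt3a and Dnmt3b bind methylated H3K36, which links gene-body histone marks to de novo DNA methylation. In the intestine, Dnmt1 and Uhrf1 are known as genes of the dividing crypt, and Tet2 and Tet3 are broadly expressed.

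The libraries held 8809678 expected counts (control) and 8646358 (knockout). Setd2 was at 6.87 FPKM (control) and 3.47 (knockout), and Apc at 10.51 and 10.73. The ratio of the Setd2 counts was 0.504 (0.432 to 0.587). Here and below, a count ratio is the knockout count over the control count after scaling to the library totals, and the range in brackets is its exact 95% interval, which covers counting error only and not variation between mice or pools. Markers of intestinal epithelium summed to 6262 FPKM (control) and 6259 (knockout). The interval was above 1 for 6 of the 10 markers and below for 2, against 28.0% and 12.5% of all measured genes. Transcripts of other tissues differed between the pools. Past 2-fold on the knockout side, where 2.78% of all measured genes were, lay all 11 markers of exocrine pancreas (summed 45.3 against 1581 FPKM). Amy2b among them reached 1 FPKM in the knockout pool alone, so had to be higher there. Past 2-fold in the same direction were 6 of 7 measured stomach markers (12.8 against 154.99 FPKM, with Gkn2 and Muc5ac listed at 0 in the control pool). Of these 7, 6 reached 1 FPKM in the knockout pool alone, so they too had to be higher there. All 4 of 4 measured erythroid markers were also past 2-fold (66.1 against 240 FPKM).

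Upstream sequences were taken from RefSeq (GRCm38.p6, the same assembly as mm10), which gave 15 windows of 300 bases for 8 of the 9 genes; Mbd2 had no entry. Sequence of Dnmt1, Dnmt3a, Dnmt3b and Uhrf1 is shown, a choice made after all 4 were seen to be higher in the knockout pool, as given below. No cause of that difference was tested with it. The words TTTCCCGC or TTTCGCGC, and TTTGCCGC or TTTGGCGC, forms of the site for the cell cycle factors of the E2F family, were searched on both strands; they do not overlap one another in these windows. They occurred in 2 of the 15 windows, 1 of Dnmt1 and 1 of Uhrf1, and in 2.26% of all 32851 windows of this length. Each word holds a CG, and this share was not matched for CpG content, so the count cannot be weighed against it. The window of Tet2, which was also higher in the knockout pool, held none of the words. In Dnmt1 the stretches that hold them lie on the minus strand at chr9:20952824-20952853 and chr9:20952574-20952601, where GENCODE annotates UTR of Dnmt1 transcripts; in the first the word is on the opposite strand, 219 bases before the start of the window's transcript, and in the second it lies 33 bases after it. In Uhrf1 the word lies 185 bases before the start on chromosome 17, and the 250 bases before that start overlap no exon. Capitals mark the E2F words in the first 3 sequences, read from 5′ to 3′:
Dnmt1 first stretch: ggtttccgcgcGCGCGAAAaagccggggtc
Dnmt1 second stretch: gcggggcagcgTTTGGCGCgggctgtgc
Uhrf1, chr17:56304063-56304312, plus strand: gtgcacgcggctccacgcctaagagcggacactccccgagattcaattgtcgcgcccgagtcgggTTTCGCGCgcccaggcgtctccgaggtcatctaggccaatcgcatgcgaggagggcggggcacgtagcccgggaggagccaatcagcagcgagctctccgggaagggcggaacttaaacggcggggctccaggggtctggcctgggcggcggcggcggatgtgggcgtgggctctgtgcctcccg

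The first Dnmt3a window and that of Dnmt3b, shown for contrast, held no E2F word, but several GC boxes (GGGCGG on either strand, capitals below), a word found in 35.7% of all windows. The 250 bases printed leave out the last 50 of each window, which follow the start. The whole Dnmt3a window held 46 CpG (38 in the printed bases) and that of Dnmt3b 30 (21 printed), against a median of 7 over all windows and 33 in the E2F-bearing windows of Dnmt1 and of Uhrf1. The CpG-richest window was that of Tet2, with 57. No window of the 8 genes held TATAAA, which 13.6% of all windows hold. A matched word is a description of the sequence and shows no binding:
Dnmt3a, chr12:3806730-3806979, plus strand: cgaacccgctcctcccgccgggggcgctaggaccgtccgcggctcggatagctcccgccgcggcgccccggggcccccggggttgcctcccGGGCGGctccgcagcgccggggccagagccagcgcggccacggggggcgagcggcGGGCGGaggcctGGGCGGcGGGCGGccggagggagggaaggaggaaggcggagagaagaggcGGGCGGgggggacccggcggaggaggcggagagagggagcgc
Dnmt3b, chr2:153649199-153649448, plus strand: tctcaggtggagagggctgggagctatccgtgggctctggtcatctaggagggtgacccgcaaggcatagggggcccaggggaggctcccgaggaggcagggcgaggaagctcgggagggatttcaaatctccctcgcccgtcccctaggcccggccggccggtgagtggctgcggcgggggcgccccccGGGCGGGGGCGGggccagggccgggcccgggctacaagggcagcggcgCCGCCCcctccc

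The 9 genes spanned a wide range of levels per length. Mbd2 was highest, at 38.9 FPKM (control) and 44.04 (knockout), a level above 85.2% of measured genes. Tet3 (11.07 and 10.69), Uhrf1 (9.5 and 12.34), Dnmt1 (7.42 and 9.63) and Dnmt3a (4.59 and 6.03) formed the middle, followed by Tet2 (2.3 and 3.01). The order of Tet3 and Uhrf1 differed between the pools. Dnmt3b, Dnmt3l and Tet1 were below 1 FPKM in the control pool, and Dnmt3l, with 5 and 4 counts, was near the floor of 3 counts.

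**Figure D1:**
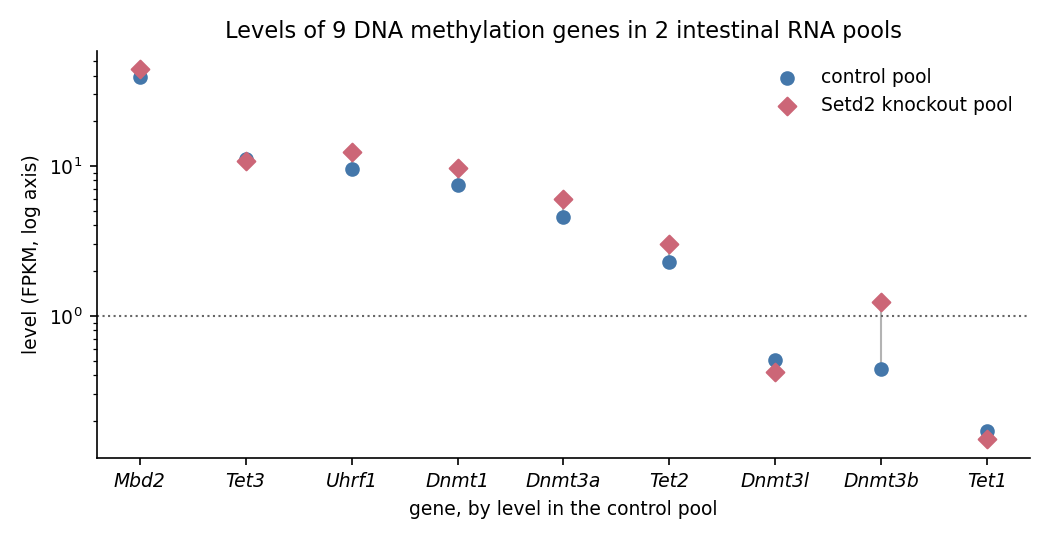
Level of each of the 9 genes (FPKM, log axis) in the control pool (circles) and the Setd2 knockout pool (diamonds), 1 library each, ordered by control level; the dotted line is 1 FPKM. Mbd2 lies near 40 FPKM in both pools, and the widest gap on this axis is that of Dnmt3b (0.44 and 1.24).

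Among the enzymes that add methyl groups, all 3 had an interval above 1, as had 28.0% of all measured genes. Dnmt3b, 1 of the 3, was measured through the knockout pool alone, so had to be higher there. Dnmt1, the maintenance methyltransferase (chromosome 9, 20907206 to 20959888), had 356 counts (control) and 453 (knockout). Its count ratio was 1.30 (1.13 to 1.49). Dnmt3a, a de novo methyltransferase (chromosome 12, 3801559 to 3914443), had 400 and 513 counts, a ratio of 1.31 (1.14 to 1.49). These are differences of about the same size, and the within-library ratio of Dnmt3a to Dnmt1 counts was 1.12 (0.972 to 1.30) in the control pool and 1.13 (0.996 to 1.29) in the knockout pool.

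Dnmt3b, the other de novo methyltransferase (chromosome 2, 153649411 to 153687730), had 16 counts in the control pool (exact Poisson interval 9.15 to 26.0) and 43 in the knockout pool (31.1 to 57.9). At 0.44 and 1.24 FPKM it was the member with the highest count ratio, 2.74 (1.51 to 5.21). It counted as measured through the knockout pool alone, and a gene that passes in this way must have the higher level there. The ratio of its counts to those of Dnmt3a was 0.0400 in the control pool (0.0226 to 0.0658) and 0.0838 in the knockout pool (0.0599 to 0.115). The FPKM of Dnmt3b stayed well under that of Dnmt3a in both pools. Dnmt3l, the catalytically inactive partner of the de novo enzymes known from germ cells (chromosome 10, 78042287 to 78063622), had 5 and 4 counts, or 0.51 and 0.42 FPKM. Its interval ran from 0.162 to 3.79, so no difference was detectable at this depth. Part of Dnmt3l overlaps Aire, which was listed at 0 and 0.29 FPKM, and reads in the overlap cannot be assigned with certainty. The counts of Dnmt1, Dnmt3a and Dnmt3b together were 772 (control) and 1009 (knockout), a ratio of 1.33 (1.21 to 1.46).

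Uhrf1, the ubiquitin ligase that recognises hemimethylated DNA and recruits Dnmt1 (chromosome 17, 56303337 to 56323486), had 297 counts (control) and 383 (knockout). Its ratio was 1.31 (1.13 to 1.53). The ratio of Uhrf1 to Dnmt1 counts was 0.834 (0.713 to 0.976) in the control pool and 0.845 (0.736 to 0.971) in the knockout pool. Per length, Uhrf1 was 1.28 times Dnmt1 in both.

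Among the dioxygenases, Tet2 was higher in the knockout pool and no difference was detectable for Tet3 or Tet1 with library totals. Tet2 (chromosome 3, 133463677 to 133545136) had 189 counts (control) and 243 (knockout), a ratio of 1.31 (1.08 to 1.59). Tet3 (chromosome 6, 83362373 to 83457208), the most abundant of the 3, had 1080 and 1024 counts. Its ratio of 0.966 (0.886 to 1.05) included 1, and this was the narrowest interval of the 9 genes. Tet3 overlaps B230319C09Rik, which had 3 and 2 counts. Tet1 (chromosome 10, 62804570 to 62887469), known from embryonic stem cells and germ cells, was at 0.17 and 0.15 FPKM from 21.02 and 19.01 expected counts, with an interval of 0.469 to 1.80. Tet3 gave most of the Tet counts, and the sums were 1290 and 1286, a ratio of 1.02 (0.940 to 1.10). The ratio of Tet2 to Tet3 counts was 0.175 in the control pool (0.149 to 0.204) and 0.237 in the knockout pool (0.205 to 0.273). These intervals did not overlap, though narrowly. Tet3 was the measured member with the lowest ratio, which favours such a gap, so this is no independent check of a difference in Tet2.

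Count ratios to Tet3 can be formed within each library, where no scaling enters. Tet3 was the measured member with the lowest ratio in these data, so every other measured member had to be higher against it. The ratio of Dnmt1 to Tet3 counts was 0.330 in the control pool (0.292 to 0.372) and 0.442 in the knockout pool (0.395 to 0.495). For Dnmt3a the values were 0.370 (0.329 to 0.416) and 0.501 (0.450 to 0.558). Neither pair of intervals overlapped, but the choice of Tet3 favours such a gap, so this is no independent check of the differences. On the FPKM scale the ratio of Dnmt1 to Tet3 was 0.670 (control) and 0.901 (knockout).

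Mbd2, the reader, had 639 counts (control) and 710 (knockout), a ratio of 1.13 (1.02 to 1.26) whose lower limit lay close to 1. Over the 7 measured genes, 6 had an interval above 1 (Dnmt1, Dnmt3a, Dnmt3b, Uhrf1, Tet2 and Mbd2) and 0 below 1. Among all 13253 measured genes, 28.0% had an interval above 1 and 12.5% below 1, 40.5% in all. After a pseudocount of 1 FPKM, 0 of the 7 were at least 2-fold higher and 0 at least 2-fold lower, where 2.78% and 1.28% of all measured genes were, 4.07% in either direction. The count ratio was 2 or more for 1 member, Dnmt3b, and for 5.75% of all. A log2 ratio above 0 was found for 6 of the 7 and for 62.5% of all. Their log2 ratios ran from -0.05 for Tet3 to 0.64 for Dnmt3b with a median of 0.33, against a median of 0.08 over all measured genes; 79.4%, 80.0%, 80.6% and 75.0% of measured genes had a lower log2 ratio than Dnmt3a, Dnmt1, Uhrf1 and Tet2.

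**Figure D2:**
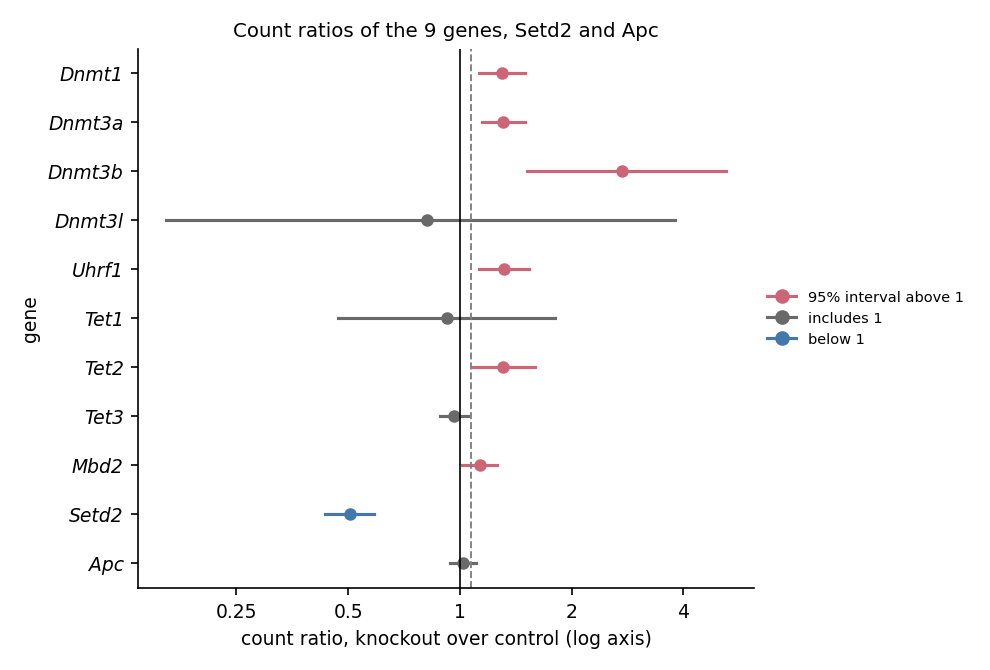
Count ratio of knockout over control (log axis) with its 95% counting interval for the 9 genes, Setd2 and Apc; the solid line is 1 and the dashed line the median ratio of all measured genes, 1.07. Dnmt1, Dnmt3a, Uhrf1 and Tet2 lie at 1.30 to 1.31, Dnmt3b at 2.74, and Setd2 at 0.504.

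The scaling of the libraries bore on the smaller differences. The median log2 count ratio of all measured genes was 0.10, and edgeR's TMM factors corresponded to a log2 shift of 0.11. With library totals, 69.0% of the genes with an interval off 1 were higher in the knockout pool. This share was 49.2% after scaling by the median ratio and 46.3% with TMM. With median ratio scaling, Dnmt1 was at 1.21 (1.05 to 1.40), Dnmt3a at 1.22 (1.07 to 1.40), Uhrf1 at 1.23 (1.05 to 1.43), Tet2 at 1.22 (1.01 to 1.49) and Dnmt3b at 2.56 (1.41 to 4.87), all with intervals above 1. Mbd2, at 1.06 (0.950 to 1.18), then included 1, and Tet3, at 0.903 (0.828 to 0.984), lay below it. At this scaling 18.9% of all measured genes had an interval above 1 and 19.6% below. With TMM factors the interval of Tet2 also included 1, at 1.21 (0.999 to 1.48), and 17.8% of all genes lay above 1 and 20.7% below.

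Dnmt1 and Uhrf1 are known as genes of S phase, so genes of dividing cells were set beside them. Of 34 proliferation genes, 21 had an interval above 1 and 0 below, against 28.0% and 12.5% of all measured genes. Their median log2 ratio was 0.38, and their summed level was 312.4 FPKM (control) and 418.7 (knockout), a count ratio of 1.33 (1.29 to 1.36). Mcm2, a subunit of the replicative helicase, was at 7.03 and 18.67 FPKM, past 2-fold after the pseudocount, and Cdc20, an activator of mitotic exit, at 11.22 and 21.06. Birc5, a mitotic regulator and the most abundant of the list, was at 24.52 and 33.91, while Mcm3 (9.46 and 9.88) and Gins1 (3.45 and 2.66), both replication factors, had the lowest ratios.

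When the sum of these proliferation genes replaced the library total as the reference, the intervals of 4 of the 7 measured members included 1. The sum itself had a count ratio of 1.33, so members with ratios near that value had to come near 1 by construction. The part of cell division in these differences was not tested. Dnmt1 was at 0.978 (0.850 to 1.13), Dnmt3a at 0.986 (0.864 to 1.13), Uhrf1 at 0.992 (0.850 to 1.16) and Tet2 at 0.989 (0.814 to 1.20), where the intervals leave out the counting error of the sum itself. Dnmt3b was above 1 on this scale too, at 2.07 (1.14 to 3.93). Tet3, at 0.729 (0.669 to 0.795), and Mbd2, at 0.854 (0.767 to 0.952), lay below 1. By this reference 5.92% of all measured genes had an interval above 1 and 51.7% below.

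**Figure D3:**
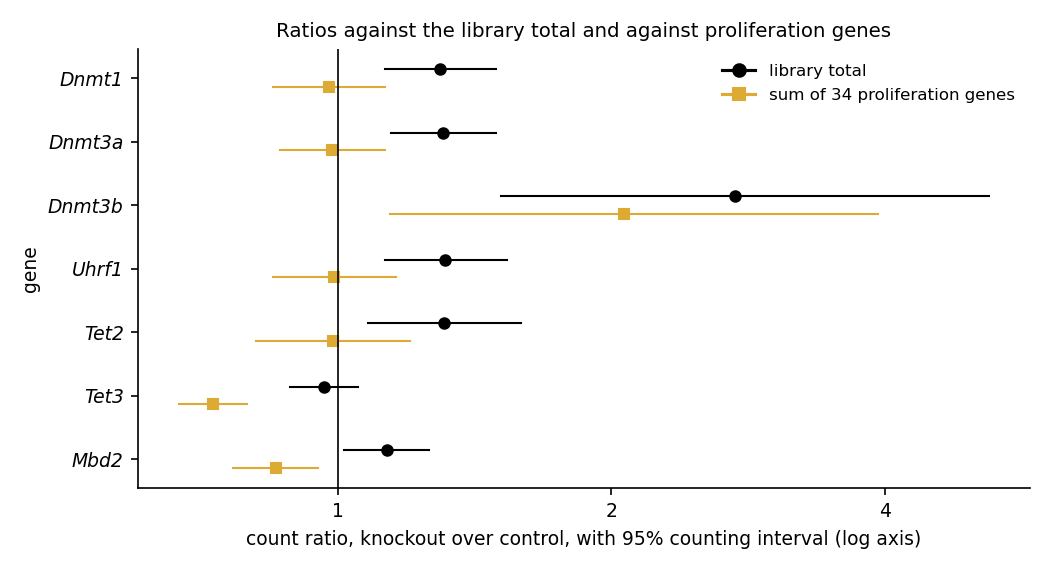
Count ratios of the 7 measured genes (log axis) with 95% counting intervals, against the library total (black circles) and against the summed counts of 34 proliferation genes (yellow squares). Against the proliferation genes, whose sum itself had a ratio of 1.33, Dnmt1, Dnmt3a, Uhrf1 and Tet2 lie at 0.978 to 0.992 and Dnmt3b at 2.07.

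Markers of several cell types also differed between the pools. The counts below stand beside 28.0% of all measured genes with an interval above 1 and 12.5% below. Of 12 stem cell markers, all measured, 10 had an interval above 1, and the sum of the list was 154.9 FPKM (control) and 233.8 (knockout). Znrf3, among the 10, reached 1 FPKM in the knockout pool alone (0.82 and 1.58), so had to be higher there. Endothelial markers had 4 of 6 above 1 (23.7 and 33.5 FPKM). Macrophage markers had 2 of 7 above 1 (133.7 and 152.3), near the share of all measured genes. Paneth cell markers had 6 of 7 below 1 and 1 above (8750 and 4483 FPKM), and goblet cell markers 5 of 7 below 1 (5091 and 3629). T cell markers had 1 of 7 below 1 (49.5 and 45.1), near the share of all measured genes. Smooth muscle markers had 0 of 6 off 1 (443.5 and 441.9). Enterocyte markers had 10 of 11 below 1 and 1 above (31601 and 23094 FPKM), and B cell markers 6 of 7 measured below 1 (42.8 and 22.6). In the germinal centre B cell list, a cell type that divides fast, 0 of 3 measured genes had an interval off 1, and the sum was 12.7 and 12.96 FPKM. The pancreas, stomach and erythroid lists given above also differed. The part of these cell types in the differences of the 9 genes was not tested. In whole tissue, fewer cells of a type and less RNA per cell cannot be told apart. Leaving the pancreas, stomach and erythroid markers out of the totals gave Dnmt1 a ratio of 1.30 and Dnmt3b one of 2.74. This step divided every ratio by 0.998, so none could move much. It also leaves in place any RNA of the 9 genes that came from these tissues, so it cannot show their part.

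Partners of Dnmt1 and Uhrf1 at the replication fork were at similar or higher levels in the knockout pool. Of 10 measured, 4 had an interval above 1 and 0 below (28.0% and 12.5% of all measured genes), with a median log2 ratio of 0.14. Pcna, the replication clamp that holds Dnmt1 at the fork, was at 77.99 FPKM (control) and 126.69 (knockout), with a ratio of 1.62 (1.49 to 1.77). Hells, a remodelling helicase needed for methylation of repeats, was at 3.49 and 4.46 with an interval that included 1 (0.967 to 1.70). Uhrf2, the relative of Uhrf1, was at 7.67 and 7.85, a ratio of 1.02 (0.854 to 1.23), and Dmap1, a Dnmt1-associated repressor, at 7.91 and 8.06.

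Of 10 other measured readers of methylated CpG, 1 had an interval above 1, Mbd3 (25.33 and 30.17 FPKM), a relative of Mbd2 that is also a NuRD subunit. Zbtb38 was at 3.35 and 4.26, Zbtb4 at 3.1 and 2.89 and Zfp57, which guards imprints, at 1.0 and 0.81. Among 13 NuRD subunits, 9 had an interval above 1 and 1 below, with a median log2 ratio of 0.23. For both lists, the shares over all measured genes were 28.0% above 1 and 12.5% below. The histone chaperone Rbbp7 was at 34.57 and 49.86 FPKM (1.44, 1.31 to 1.59) and the deacetylase Hdac2 at 16.36 and 23.59 (1.44, 1.24 to 1.68). Chd3, the most abundant remodelling ATPase of the list, was lower, at 52.57 and 39.26 (0.747, 0.709 to 0.786), and Gatad2b was at 6.06 and 6.05.

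Genes that act with Tet enzymes went both ways, as measured genes did as a whole (28.0% with an interval above 1 and 12.5% below). Of 16 measured genes of repair and deamination, 4 had an interval above 1 and 2 below, close to those shares, with a median log2 ratio of 0.11. Apex1, the abasic site endonuclease, was at 14.46 and 23.4 FPKM (1.62, 1.33 to 1.98) and Gadd45b, a stress-induced gene, at 11.5 and 17.71. Its relative Gadd45a was at 49.7 and 37.74 (0.759, 0.665 to 0.867), and the cytidine deaminase Apobec1 at 35.89 and 30.2. Among 10 measured regulators of Tet proteins, 4 were above and 4 below 1, with a median of -0.05. Ogt, the glycosyltransferase that binds Tet proteins, was lower, at 46.35 and 37.22 FPKM (0.802, 0.753 to 0.854), as was D2hgdh, which removes the Tet inhibitor D-2-hydroxyglutarate (8.14 and 6.4). Cxxc5, a CXXC protein that binds Tet2, was higher, at 1.62 and 3.04 (1.88, 1.21 to 2.97), and Vprbp was at 4.76 and 5.73. Idh1, a source of 2-oxoglutarate and the most abundant of the list, was at 223.9 and 250.3.

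Methyl donor genes included more lower than higher members. Of 11 measured, 3 had an interval above 1 and 5 below, against 28.0% and 12.5% of all measured genes. The median log2 ratio was -0.09, and 0.14 with no filter on low values. Shmt2, the mitochondrial serine hydroxymethyltransferase, was at 9.92 and 15.77 FPKM (1.59, 1.33 to 1.91). Mtrr, which keeps methionine synthase active, was at 1.44 and 0.69 (0.467, 0.268 to 0.789). Ahcy, which clears S-adenosylhomocysteine, was at 58.42 and 49.57 (0.848, 0.782 to 0.919). Its relative Ahcyl1, the most abundant member, was at 151.6 and 140.6 (0.928, 0.892 to 0.965). Ahcyl2, named after its values were seen, had a ratio of 0.943 (0.907 to 0.981). Both are among the 5 below 1, but their differences are small, and high counts make their intervals narrow.

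The genes around H3K36 methylation, the mark that Dnmt3a and Dnmt3b read, were set beside all measured genes (28.0% above 1 and 12.5% below). Among 14 measured writers and erasers, 5 were above 1 and 1 below. The one below was Setd2 itself. Kdm2b, a demethylase of H3K36 with a CXXC domain that binds unmethylated CpG, was at 3.4 and 5.16 FPKM (1.49, 1.17 to 1.89), and Kdm8 at 1.62 and 2.4. Kdm2a was at 23.06 and 22.79, and Setmar at 1.27 and 1.01. Of 12 measured readers of methylated H3K36 other than the 2 methyltransferases, 7 had an interval above 1 and 0 below, with a median log2 ratio of 0.31, beside 0.33 for the 7 measured members. The PWWP proteins Pwwp2b (3.29 and 5.84; 1.80, 1.33 to 2.46) and Mum1 (5.03 and 7.33; 1.46, 1.19 to 1.79) led this list. Hdgfrp2 was at 12.7 and 10.62, Phf1 at 20.51 and 19.13, and Morf4l1, a chromodomain reader and the most abundant, at 79.97 and 79.72.

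**Figure D4:**
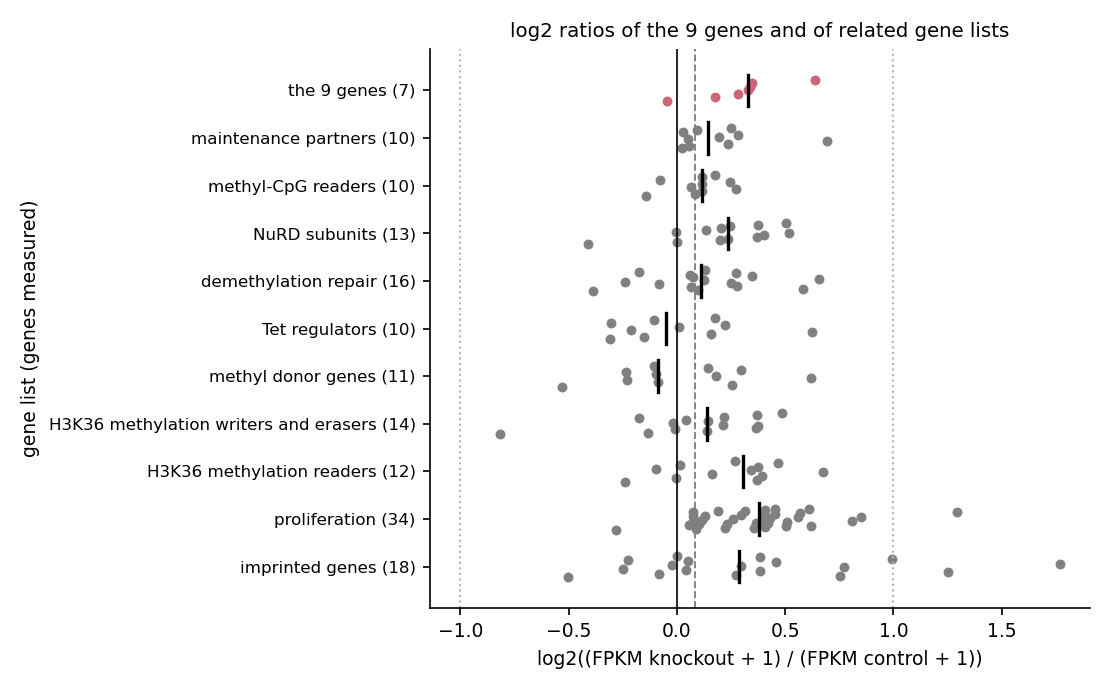
Difference of log2(FPKM + 1), knockout minus control, 1 point per measured gene, for the 7 measured members (red) and 10 related lists (grey), with black bars at the medians, the dashed line at the median of all measured genes (0.08) and dotted lines at 2-fold. The medians of the 7 measured members (0.33), of H3K36 readers (0.31) and of proliferation genes (0.38) lie to the right of the dashed line, those of Tet regulators (-0.05) and methyl donor genes (-0.09) to its left.

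Genes known to depend on DNA methylation for their silencing were listed at the level of RNA, and methylation itself was not measured. Imprinted genes, which are expressed from 1 parental allele under methylated control regions, had 8 of 18 measured members with an interval above 1 and 1 below. Over all measured genes these shares were 28.0% and 12.5%. The median log2 ratio of the imprinted genes was 0.29. This median was 0.14 with no filter on low values and 0.11 with a filter of FPKM 5. At least 2-fold higher were 2, H19 and Phlda2, where 2.78% of all measured genes were. H19, a noncoding RNA expressed from the maternal allele, was at 0.3 FPKM (control) and 3.43 (knockout), with 6.13 and 68 counts and a ratio of 11.5 (5.04 to 32.6). Phlda2, a growth restraining gene best known from placenta, was at 0.64 and 2.91 FPKM from 4 and 18 counts (4.58, 1.51 to 18.6). H19, Phlda2 and Peg3 counted as measured through the knockout pool alone, so they had to be higher there. They are among the 8 above 1, and H19 and Phlda2 are the only genes of the list past 2-fold.

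Other imprinted genes, chosen after their values were seen, were Igf2, the growth factor neighbour of H19 (2.0 and 4.98 FPKM; 3.30, 2.36 to 4.67), the adaptor Grb10 (1.15 and 2.63; 2.29, 1.64 to 3.24) and the cell cycle inhibitor Cdkn1c (5.1 and 9.41; 1.85, 1.41 to 2.43). H19 and Igf2, which are expressed from opposite parental alleles, were both higher in the knockout pool. Gnas, the most abundant, was lower, at 205.2 and 175.4 (0.863, 0.819 to 0.909). Meg3 was at 2.57 and 1.52 FPKM, but its count ratio of 0.825 (0.612 to 1.11) included 1, and Zrsr1 was at 2.12 and 1.63 (0.546 to 1.07). Alleles cannot be told apart in these gene values. The markers of stem cells, pancreas and stomach differed between the pools as well, and their part in the values of the imprinted genes was not tested.

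**Figure D5:**
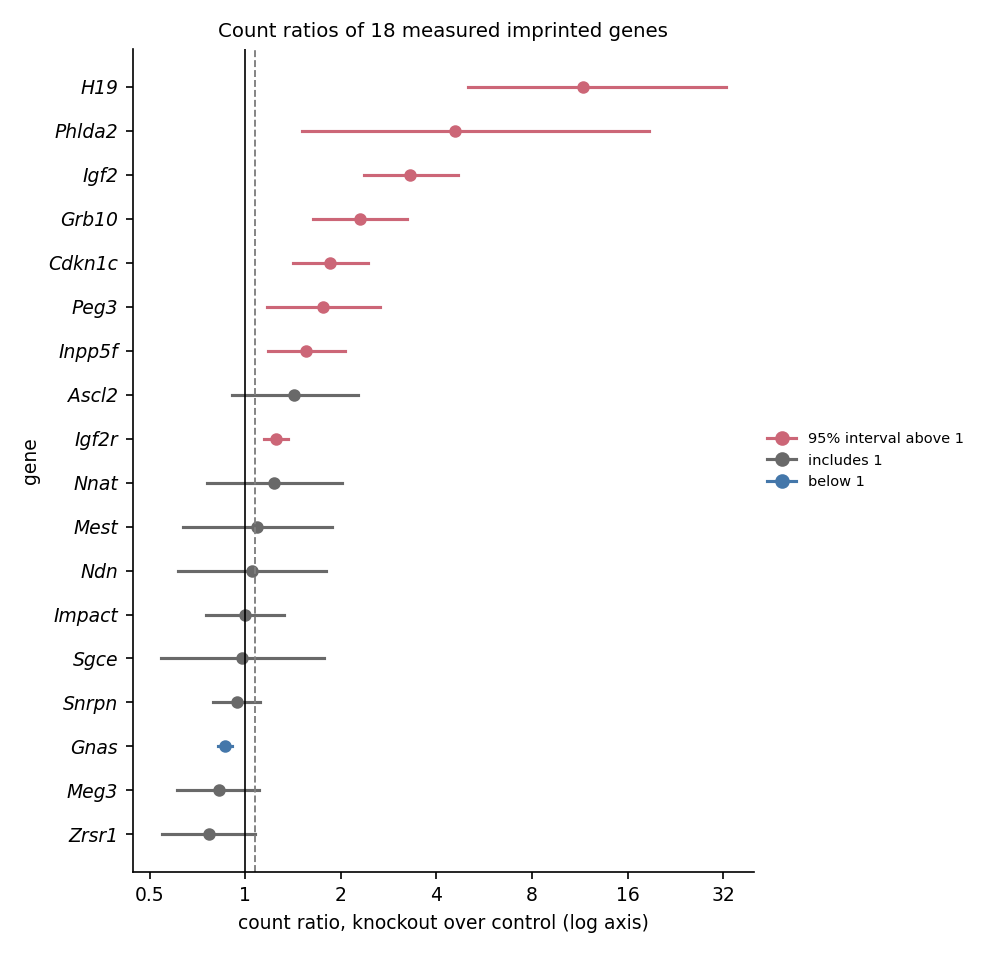
Count ratio of knockout over control (log axis) with its 95% counting interval for 18 measured imprinted genes, ordered by ratio; the solid line is 1 and the dashed line the median of all measured genes, 1.07. H19 lies at 11.5, Phlda2 at 4.58 and Igf2 at 3.30, and Gnas, at 0.863, has the only interval below 1.

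Of 20 listed germ cell genes with promoters known to be methylated in somatic tissues, 12 were among the deposited genes. Of these 12, 11 were below 1 FPKM in both libraries, and Dazl, Tex11 and Stk31 were listed at 0 in both. For comparison, 13253 of all 18919 genes were measured. The 1 measured gene, Sycp3, a protein of the meiotic chromosome axis, was at 6.61 and 6.42 FPKM with a ratio of 0.972 (0.675 to 1.40). The summed counts of the list had a ratio of 1.28 (0.966 to 1.69), and Sycp3 gave 65 of 94.77 (control) and 62 of 118.61 (knockout). The 3 genes at 0 have floors of 3 counts in each library.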

How the data were processed

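The data are 2 RNA-seq libraries of mouse intestine, 1 per genotype, each from pooled RNA of 3 littermates. Per the labels' protocols, the authors mapped reads to mm10 with BWA or Bowtie (Bowtie2 in the submitters' processing notes) and quantified genes with RSEM; versions and the strand setting are not given in the sources used here. Per the file headers, the deposited values are expected counts, of which 78.1% (control) and 78.2% (knockout) were whole to the 2 decimals listed, and FPKM. The listed transcript length, which enters the FPKM, differed between libraries by at most 96 nt for the 9 genes.

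A gene counted as measured where either library listed FPKM 1 or above (13253 genes). Levels are FPKM, and ratios use expected counts rounded to whole numbers and scaled to the library totals, with exact Clopper-Pearson intervals at 95%. The 2-fold rule used log2 of FPKM plus a pseudocount of 1. With 1 library per group no model was fitted; edgeR gave scaling factors alone. For this comparison, Poisson counts were simulated over the 13253 measured genes as a check of the calculation. The intervals held the true ratio for 95.8% of 13018 unchanged genes and 93.9% of 49 genes changed 1.5-fold. They held it for 98% of 50 changed 2-fold, 94% of 50 changed 3-fold and 92% of 50 changed 4-fold. Such counts follow the model behind the interval, so coverage near 95% was set in advance. It says nothing of the spread between mice or pools.

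The members and gene lists were chosen with earlier results of these data known. Named genes are the members, Setd2, Apc and, per list, up to 2 at each end of the log2 ratios, the most abundant, and those past 2-fold; genes next to a member or nearest to it in ratio may be named. One gene that the rule names is not reported here. Alternatives were median ratio and edgeR TMM scaling, totals without pancreas, stomach and erythroid markers, a pseudocount of 0.1, no filter, a filter of FPKM 5, TPM, a 99% level and a proliferation reference. Python 3.11.15, scipy 1.17.1 and edgeR 4.0.16 were used.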

Additional observations from a re-analysis of the deposited data

How the results depend on the processing

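No paired analysis was possible because each genotype had 1 library. The number of members at least 2-fold higher was 0 and became 1, Dnmt3b, with a pseudocount of 0.1 FPKM, for which the share of all measured genes was not computed. This number was 0 under the other 6 settings, and the number at least 2-fold lower was 0 under all 7. The number with an interval above 1 was 6 with library totals (28.0% of all measured genes) and 6 without the pancreas, stomach and erythroid markers (28.3%). It was 5 with median ratio scaling (18.9%), 4 with TMM (17.8%) and 5 at the 99% level, where the share of all genes was not computed. Against the proliferation genes, a count chosen after seeing the data, it was 1 (Dnmt3b, with 5.92% of all measured genes above 1). The number below 1 was 0 with library totals (12.5% of all). It became 1 (Tet3) with median ratio scaling (19.6% of all), 1 (Tet3) with TMM (20.7%) and 2 (Tet3 and Mbd2) against the proliferation genes (51.7%). Against that reference the ratios of Dnmt1 (0.978), Dnmt3a (0.986), Uhrf1 (0.992), Tet2 (0.989) and Mbd2 (0.854) lay on the other side of 1 from their values with library totals, by the construction of a reference that itself had a ratio of 1.33. The median log2 ratio of the members was 0.24 to 0.37 over the 7 settings. The median of methyl donor genes changed sign, to 0.14, with no filter on low values, and the medians of the other 9 related lists kept their sign. That of imprinted genes was 0.14 with no filter and 0.11 with a filter of FPKM 5. Depth limits Dnmt3l and Tet1, for which 5 and 21.02 control counts leave wide intervals.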

Other observations

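The genes next to the members on the chromosome gave no common direction. Commd7 and Mapre1, on either side of Dnmt3b, were at 10.47 and 9.85 FPKM and at 14.67 and 15.52 FPKM in the control and knockout pools, with ratios of 0.944 (0.799 to 1.12) and 1.06 (0.967 to 1.16). Next to Uhrf1, the lipid droplet gene Plin3 was at 221.2 and 236.1 and the histone demethylase gene Kdm4b at 5.8 and 5.21, a ratio of 0.899 (0.743 to 1.09). Next to Dnmt1, the translation factor gene Eif3g was at 46.85 and 52.58 and the receptor gene S1pr2 at 1.64 and 2.04. Icosl, an immune costimulatory ligand gene beside Dnmt3l, was lower in the knockout pool, at 8.38 and 5.27 (a ratio of 0.629 with an upper limit of 0.790), and Ppa2, beside Tet2, was higher, at 23.57 and 30.52 (1.29, 1.11 to 1.52).

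Among 135 measured genes of the lists with at least 50 counts in the higher library, those nearest to a member in log2 count ratio, a likeness over 2 libraries alone, were Chaf1a and Chd4 for Dnmt1, Top2a and Chd4 for Dnmt3a, Cdc6 and Cdk2ap1 for Uhrf1, and Mcm2 and Grb10 for Dnmt3b. Chaf1a, a subunit of the chromatin assembly factor of replication, had a ratio of 1.30 (1.03 to 1.64) and Top2a, a topoisomerase of dividing cells, one of 1.31 (1.19 to 1.44). Mcm2, at 2.66 (2.26 to 3.13), was the nearest to Dnmt3b. For Tet2 they were Cdk2ap1 and Top2a. For Tet3 they were Whsc1l1 and Sycp3, with ratios of 0.965 and 0.972. Proliferation genes, whose sum had a ratio of 1.33, were among the genes compared, so members near that ratio were apt to have neighbours among them. What this likeness means was not tested.

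Tdrd1, a germ cell gene of the list under promoter methylation chosen after its values were seen, was below 1 FPKM in both pools but had 15.77 expected counts (control) and 33.01 (knockout), a ratio of 2.10 (1.12 to 4.09).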
